A study of Drosophila melanogaster with 14 samples.

Results

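Total RNA of ovaries in which the gene cuff was knocked down was compared with total RNA of shWhite ovaries, in 4 libraries of Drosophila melanogaster depleted of ribosomal RNA. They are 4 of the 14 samples of the series and were chosen by assay and genotype, not by any measured value. Every fly carried the driver P{GAL4::VP16-nos.UTR}CG6325MVD1, which expresses GAL4 in the germline, with a short hairpin RNA inserted at attP2. The 2 shCuff libraries carried the hairpin TRiP.GL00054 against cuff, and the 2 shWhite control libraries carried TRiP.HMS00017 against the eye colour gene white, so both groups expressed the driver and a hairpin. Flies were 3 to 14 days old. The nos driver is a germline driver, so the somatic follicle cells that enclose each egg chamber were in the ovary but were not the cells targeted. The titles put 1 library of each genotype in set AC (replicate 1) and 1 in set ES (replicate 2), and each set is called a pair here. The labels describe the set ES libraries as controls for chromatin libraries. Reads were counted by the authors in 168744 bins of 1 kb of the dm3 genome, and the 27388 bins whose mean RPKM (reads per kb per 1000000 library reads) was at least 1 were compared, as were 4356 of 16880 windows of 10 kb under the same filter.

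Cutoff is a nuclear protein of the germline that acts with the proteins Rhino and Deadlock at dual-strand piRNA clusters. These clusters are heterochromatic loci full of transposon fragments, transcribed from both strands, and their transcripts are cut into PIWI-interacting RNAs (piRNAs) that silence transposons. Uni-strand clusters, such as flamenco, are transcribed from 1 strand and do not need Cutoff in the textbook model. White encodes a pigment transporter of the eye and is the target of the control hairpin. No dm3 gene annotation was used, so bins are given by position, the level of cuff itself was not analysed here, and markers of germline and follicle cells were not read. In bulk tissue, fewer cells of a type and less RNA per cell cannot be told apart.

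The libraries were unequal before any comparison of genotypes. Reads totalled 3357617 and 2950394 in the shWhite and shCuff libraries of replicate 1, and 5688671 and 7344632 in those of replicate 2. ShCuff replicate 2 stood apart: of its bins with reads, 8.37% held 1 to 3 reads, against 35.7% to 44.4% in the other 3 libraries. It had no read in 242 of the 10236 bins that held at least 20 reads in each of the other 3 libraries, while the same count was 0 for shWhite replicate 1 and 1 for each of the other two. Across bins, log2(RPM + 1), where RPM is reads per 1000000 library reads, correlated at 0.954 (Pearson) between the libraries of replicate 1 and at 0.735 between those of replicate 2. The shWhite libraries correlated with each other at 0.758 and the shCuff libraries at 0.592, so libraries resembled their set more than their genotype in replicate 1. Bins of a library are not independent replicates, and these coefficients are descriptions. Values are therefore given per pair, and the counts of bins past the threshold, of cluster bins and of the megabase that holds 42AB are also given without shCuff replicate 2, the latter counts by comparisons added after the data were seen.

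With title set as a block, the quasi-likelihood test of edgeR, its p-values adjusted by Benjamini-Hochberg over all 27388 bins, called 21 bins higher in shCuff (0.0767% of bins tested) and 8 lower (0.0292%) at an adjusted p of 0.05. All 8 bins that fell lay in 5 places on the main chromosome arms, which held 26522 of the 27388 bins tested. Of the 21 that rose, 9 lay on the arms, 6 on heterochromatic scaffolds and 6 in unplaced sequence. The shWhite mean was under 1 RPKM in 9 of the last 12 and in 3 of the 9 on the arms, so these bins entered the test only through shCuff and nothing is read from their share. An unadjusted p under 0.05 was reached by 1264 bins. The test had 1 residual degree of freedom between libraries. Without the block it called 0 bins, with 105 at an unadjusted p under 0.05, and without shCuff replicate 2 it called 5 higher and 2 lower.

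Among the bins that passed, the largest fall was on 2R, in adjacent bins from 20183001 to 20184000 and from 20184001 to 20185000. The first bin held 134 reads in shWhite replicate 1 against 5 in shCuff replicate 1, and 108 against 0 in replicate 2, and values of a pair are given as shWhite, then shCuff. Both shWhite libraries were far above the shCuff libraries, and the log2 change was -5.79 (SE 0.97, edgeR adjusted p = 0.00290). In the second bin reads went from 181 to 12 and from 176 to 0, with a log2 change of -5.30 (SE 0.89, edgeR adjusted p = 0.00306). The next bin shared the direction, and the 3 bins together held 368 and 21 reads in replicate 1 and 393 and 32 in replicate 2. Poly(A) RNA, measured in 1 library per genotype, held 894 reads over these 3 bins in shWhite and 83 in shCuff. Counts of 0 in these bins come from shCuff replicate 2, the library with an excess of empty bins, and the part of that excess in them was not tested; in replicate 1 alone the first bin was 23.6-fold lower and the second 13.3-fold lower.

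On 2L, the adjacent bins from 2243001 to 2245000 fell without any empty library. The first held 370 and 51 reads in replicate 1 (shWhite, then shCuff), and 268 and 16 in replicate 2 (log2 change -3.49, SE 0.58, edgeR adjusted p = 0.00290). The second held 325 and 42 reads in replicate 1 and 224 and 8 in replicate 2 (log2 change -3.82, SE 0.64, edgeR adjusted p = 0.00290). With the bin before them they formed a stretch of 3 kb that held 235.0 and 35.6 RPM in replicate 1 and 113.2 and 5.72 RPM in replicate 2. Both shWhite values of the stretch exceeded both shCuff values. Run-on RNA, which samples engaged polymerases, held 68 reads over the stretch in the driver-only control and 9 in shCuff.

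On X, a stretch of 5 bins from 10772001 to 10777000 was at least 2-fold lower in both pairs, with 663 and 75 reads in replicate 1 and 498 and 75 in replicate 2. It was the longest such stretch outside the piRNA clusters. Its first bin fell from 191 to 22 reads and from 140 to 18 (log2 change -3.12, SE 0.64, edgeR adjusted p = 0.0404). Its second bin fell from 165 to 13 and from 142 to 0 (log2 change -5.03, SE 0.91, edgeR adjusted p = 0.00820). The other 3 bins of the stretch did not pass.

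Both places on 3R were lower in every shCuff library. The bin from 3372001 to 3373000 held 347 and 28 reads in replicate 1 and 193 and 38 in replicate 2 (log2 change -3.07, SE 0.56, edgeR adjusted p = 0.00841). Its neighbour from 3371001 held 158 and 11 reads in replicate 1 and 152 and 74 in replicate 2, and did not pass (edgeR adjusted p = 0.429). The bin from 16818001 to 16819000 held 154 and 24 reads in replicate 1 and 251 and 23 in replicate 2 (log2 change -3.15, SE 0.64, edgeR adjusted p = 0.0379).

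Of the bins that rose, 5 lay on the scaffold 3RHet, which holds heterochromatin of chromosome arm 3R. The bin from 641001 to 642000 had the most reads of these, 38 in shWhite and 468 in shCuff of replicate 1, and 12 and 551 in replicate 2 (log2 change 4.42, SE 0.58, edgeR adjusted p = 6.63e-05). It was present in every library, at 11.3 and 2.11 RPM in the shWhite libraries and 158.6 and 75.0 in the shCuff libraries, which did not overlap. The adjacent bins from 572001 to 574000 held 6 and 115 reads, then 8 and 146, in replicate 1, and 6 and 515, then 3 and 137, in replicate 2. The bin from 836001 to 837000 held 4 and 134 reads in replicate 1 and 4 and 211 in replicate 2. In the bin from 2183001 to 2184000 both shWhite libraries held 0 reads and the shCuff libraries held 88 and 259. Against a floor of 3 reads per library it was at least 33.4-fold higher in replicate 1 and at least 66.9-fold higher in replicate 2 (edgeR adjusted p = 4.21e-05). The sixth scaffold bin, on 2RHet from 2266001 to 2267000, held 5 and 614 reads in replicate 1 and 0 and 132 in replicate 2 (edgeR adjusted p = 9.50e-07). Each of the 6 held at most 38 reads in either shWhite library and at least 88 in either shCuff library.

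In the unplaced sequence Uextra, the adjacent bins from 1337001 to 1339000 had the smallest adjusted p of the bins that rose there. The first held 1 read in shWhite and 397 in shCuff of replicate 1, and 3 and 264 in replicate 2 (log2 change 7.17, SE 0.76, edgeR adjusted p = 1.49e-06). The second held 4 and 820 reads in replicate 1, and 0 and 147 in replicate 2 (log2 change 8.03, SE 0.77, edgeR adjusted p = 4.29e-07). Their 10-kb window, from 1330001 to 1340000, was the only window to pass the same test over windows, where 1 window was called higher (0.023% of windows tested) and 0 lower. It held 5 and 1217 reads in replicate 1 and 3 and 411 in replicate 2 (log2 change 7.57, SE 0.48, edgeR adjusted p = 0.0291). The windows with an unadjusted p under 0.05 numbered 262, and without shCuff replicate 2 the test called 2 higher and 0 lower. The Uextra bin from 9061001 to 9062000 passed on 1 library, with 174 reads in shCuff replicate 1 and 0 in the other 3 (edgeR adjusted p = 0.00479), so replicate 2 carried no change there. The bin from 4649001 to 4650000 held 0 and 220 reads in replicate 1 and 1 and 40 in replicate 2, and that from 438001 to 439000 held 0 and 5, and 5 and 295. Reads of these bins were thus few in shWhite and unequal between the shCuff libraries. The bin of U from 5630001 to 5631000 held 0 reads in both shWhite libraries and 13 and 144 in the shCuff libraries.

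On the arms, the bin of 3L from 14265001 to 14266000 held 3 reads with shWhite and 68 with shCuff of replicate 1, and 40 and 3855 in replicate 2 (log2 change 5.76, SE 0.66, edgeR adjusted p = 6.99e-06). The pair of bins of 2L from 22281001 to 22283000, near the base of the arm, held 0 and 67, then 1 and 63, in replicate 1, and 0 and 29, then 1 and 275, in replicate 2. The bin of 2R from 1106001 to 1107000, also in the part of the arm nearest the centromere, held 8 and 163 reads in replicate 1 and 1 and 72 in replicate 2. The bin of 2L from 8495001 to 8496000 held 0 and 4 reads in replicate 1 and 1 and 225 in replicate 2, so its change lay mainly in replicate 2. Other bins of the arm interiors moved by less, and that of 2L from 1498001 to 1499000 held 20 and 115 reads in replicate 1 and 476 and 2851 in replicate 2 (log2 change 2.44, SE 0.51, edgeR adjusted p = 0.0411). In that bin the shWhite value of replicate 2 exceeded the shCuff value of replicate 1 in RPM, 83.7 against 39.0, so the groups overlapped and the change shows only within pairs. The same held for the bins of 2R from 5126001 and of 3L from 4419001, which were 3.34-fold and 5.23-fold higher in replicate 1 and 11.01-fold and 8.24-fold higher in replicate 2.

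**Figure D1:**
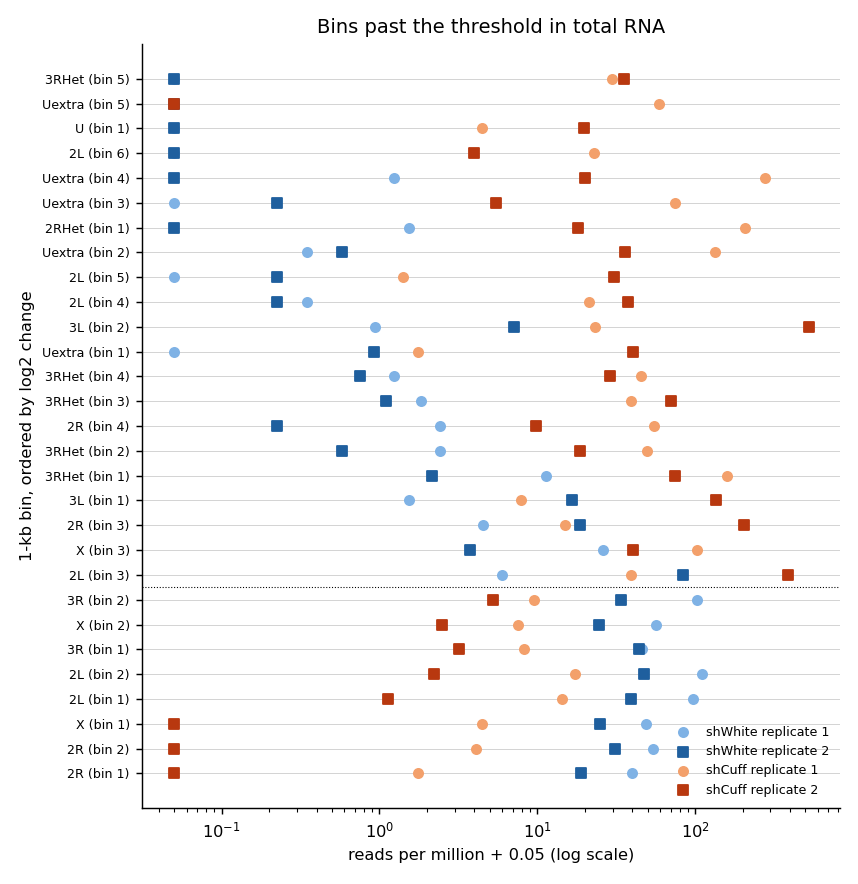
RPM (plus 0.05, log scale) in each of the 4 total RNA libraries for the 29 bins past an adjusted p of 0.05, ordered by log2 change; circles are replicate 1, squares replicate 2, blue shWhite, orange to red shCuff. Below the dotted line are the 8 bins that fell and above it the 21 that rose; points at the left edge are bins without reads, and markers can cover each other there.

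The white interval, X from 2684001 to 2691000, was higher in shCuff, which had no hairpin against white. Its total RNA was 77.4 RPM in shWhite and 301.0 in shCuff of replicate 1, and 14.8 and 101.2 in replicate 2. Each of its 5 bins tested was higher by 2-fold or more in both pairs, and 1 of them, from 2685001 to 2686000, passed the test (88 and 305 reads, then 21 and 295, log2 change 2.67, SE 0.55, edgeR adjusted p = 0.0411). Poly(A) RNA over the interval was 67.3 RPM in shWhite and 276.1 in shCuff. Run-on, whose control carried no hairpin against white, went the other way, from 730.3 RPM in the control to 527.1 in shCuff.

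The piRNA cluster 42AB, on 2R from 2144001 to 2387000, had no bin past the adjusted threshold, although most of its bins moved the same way. Of its 68 bins tested, 54 were at least 2-fold lower in both pairs and 1 was higher, against 2.27% lower and 6.1% higher over all bins, and 28 of the 68 (41.2%) had an unadjusted p under 0.05, against 4.62% of all bins. Of the 68, 66 reached a mean of 1 RPKM over the shWhite libraries and 12 over the shCuff libraries, so the level filter admitted most of them through shWhite and the count is no support for a fall. ShCuff replicate 2 held 0 reads in 47 of the 54. Without that library, shCuff replicate 1 was at least 2-fold below both shWhite libraries in 57 of the 68 bins, against 5.25% of all bins. The bins were those admitted by the same filter, so this count is no support for a fall either. Its bins were shallow, with a longest stretch of 7 lower bins, from 2210001 to 2217000, that held 166 and 0 reads in replicate 1 and 147 and 21 in replicate 2. Of the 16 stretches of 3 or more adjacent bins lower in both pairs, 6 lay in 42AB, which held 68 of the 27388 bins tested. These 6 are made of the same 54 bins, so their count is no support for a fall either. Both assays outside the total RNA pairs moved the same way in most of its lower bins. Of the 54, 45 were at least 2-fold lower in poly(A) RNA and 46 by run-on, against 6.98% and 24.4% of all bins. The 54 were picked as lower in total RNA, and 2 of them reached a mean of 1 RPKM over shCuff. All bins were not picked in that way, so nothing is read from the gap between these shares. Poly(A) reads were few there, and the stretch of 7 bins held 45 in shWhite and 0 in shCuff. Over the whole interval poly(A) RNA held 324 reads in each genotype (38.7 RPM in shWhite and 29.6 in shCuff), so its sum fell far less than these bins did. Run-on over the interval was 1085.9 RPM in the driver-only control and 293.8 in shCuff. At the scale of megabases, the one on 2R from 2000001 to 3000000, which holds 42AB, had 58 of 263 bins lower in both pairs (22.1%), while the median over the 118 megabases with at least 50 bins tested was 1.85%. Of these 58, 54 were the bins of 42AB already counted, so the megabase adds little to them. In 48 of the 58 shCuff replicate 2 held 0 reads. Without that library 67 of the 263 bins were lower (25.5%, against 5.25% of all bins), 57 of them in 42AB.

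The other clusters varied in how far their bins agreed. In the dual-strand cluster 38C_b on 2L, 7 of 9 bins were at least 2-fold lower in both pairs, against 2.27% of all bins. All 9 reached a mean of 1 RPKM over the shWhite libraries and 2 over the shCuff libraries. The level filter thus admitted most of them through shWhite, and the count is no support for a fall. In 80F on 3L none of 10 was, although 7 were lower in replicate 1 and 3 in replicate 2, and 5 were at least 2-fold apart in opposite directions. In the chromosome 4 cluster 3 of 6 bins were at least 2-fold higher in both pairs, against 6.1% of all bins. Its interval held 46 and 115 reads in replicate 1 and 49 and 223 in replicate 2. Here 3 of the 6 bins reached a mean of 1 RPKM over shWhite and 6 over shCuff, so the filter favoured bins high in shCuff. Among the uni-strand clusters, 20A had 6 of 18 bins lower in both pairs and flamenco 2 of 26. Summed over 20A, total RNA was 271.9 and 155.6 RPM in replicate 1 and 181.8 and 47.4 in replicate 2. Over flamenco it was 112.6 and 96.9 RPM in replicate 1 and 36.6 and 29.3 in replicate 2. ShCuff replicate 2 held 0 reads in 6 of the 7 lower bins of 38C_b, 5 of the 6 of 20A and 1 of the 2 of flamenco. Without it, shCuff replicate 1 was at least 2-fold below both shWhite libraries in 7 of 9 bins of 38C_b, 4 of 10 of 80F, 0 of 18 of 20A and 1 of 26 of flamenco, and above both in 4 of 6 of the chromosome 4 cluster. Over all bins the shares were 5.25% below both and 2.79% above both. These are counts per bin with no test of the clusters, and 38C_a had 2 bins tested and none that was 2-fold lower in both pairs.

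Loci outside the piRNA clusters served as comparison. The 66D interval on 3L, which holds chorion genes that follicle cells amplify and express for the eggshell, was 12475 RPM in shWhite and 23410 in shCuff of replicate 1, and 16423 and 23154 in replicate 2. Both pairs were thus higher, by 1.88-fold and 1.41-fold, and none of its 19 bins was at least 2-fold higher in both pairs. The Antennapedia complex interval on 3R, a cluster of homeotic genes, was 436.9 and 385.7 RPM in replicate 1 and 498.7 and 314.2 in replicate 2. The bithorax complex, the other homeotic cluster, was 10.1 and 12.2 RPM in replicate 1 and 10.7 and 64.0 in replicate 2, so its difference lay in shCuff replicate 2. The histone repeat on 2L was at most 12.5 RPM in any library.

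**Figure D2:**
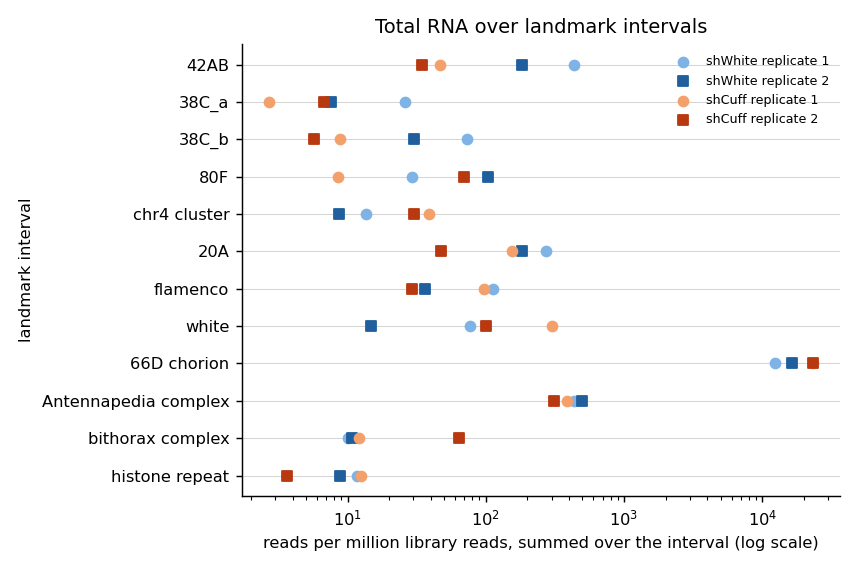
Total RNA summed over landmark intervals, in RPM on a log scale, in each of the 4 libraries (circles replicate 1, squares replicate 2, blue shWhite, orange to red shCuff). In 42AB both shCuff libraries lie below both shWhite libraries, at 46.8 and 34.7 against 437.5 and 182.6. The same order is seen in the uni-strand cluster 20A, at 155.6 and 47.4 against 271.9 and 181.8. It is also seen in 38C_a, 38C_b and the Antennapedia complex. In flamenco the pairs lie closer together than the replicates.

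Among 10-kb windows, 123 were at least 2-fold higher in both pairs (2.82% of windows tested) and 24 lower (0.551%). Ranked by the smaller of the log2 ratios of the pairs, the 10 lowest windows included 5 of 42AB, such as 2R from 2190001 to 2200000, which held 146 and 0 reads in replicate 1 and 78 and 2 in replicate 2. The other 5 were windows of 2R from 1380001 and 20180001, of 2L from 2240001, and of 3R from 13040001 and 16810001. Those of 42AB had a mean of 1.15 to 1.98 RPKM, nearly all of it from shWhite. The level filter thus admitted them through shWhite, and their count is no support for a fall. The 42AB interval is 243 kb long, and its share of the windows tested is not given here. The window of 3R from 13040001 to 13050000, which held none of the bins called, had 150 and 30 reads in replicate 1 and 168 and 34 in replicate 2 (log2 change -2.40, SE 0.54, edgeR adjusted p = 0.545). Of the 10 windows highest in both pairs, 5 lay on heterochromatic scaffolds, 3 in unplaced sequence and 1 each on 2L and 3L, and all 10 held a bin that rose. The window of 2RHet from 2260001 to 2270000 held 7 and 636 reads in replicate 1 and 3 and 151 in replicate 2, and that of U from 5630001 to 5640000 held 2 and 60, and 1 and 306. Neither passed the test over windows, with edgeR adjusted p of 0.0899 and 0.199.

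Taken over all bins, these loci included, the pairs agreed little. Over all bins tested, 54.9% had the same sign in both pairs (95% exact binomial interval 54.3% to 55.5%, counting error only), 1672 were at least 2-fold higher in both (6.1%), 621 lower in both (2.27%) and 2083 at least 2-fold apart in opposite directions. The log2 ratios of the pairs correlated at 0.064 (Pearson) across bins and at 0.245 across windows. Of the bins at least 2-fold higher in replicate 1, 32.2% were so in replicate 2, and of those in replicate 2, 26.5% were so in replicate 1. Of the bins at least 2-fold lower, the shares were 31.1% and 8.005%, since replicate 2 had 7758 such bins and replicate 1 had 1999. The SD of the log2 ratio was 1.12 in replicate 1 and 2.46 in replicate 2. Ratios were computed with a pseudocount of 0.5 reads, and 1419 bins tested held no read in either library of replicate 1, so that library size alone set the sign there. Leaving out bins at 0 reads in shCuff replicate 2, a comparison added after the data were seen, left 317 bins lower in both pairs; the 1672 higher bins could not change, since a bin without reads there cannot be higher in replicate 2.

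**Figure D3:**
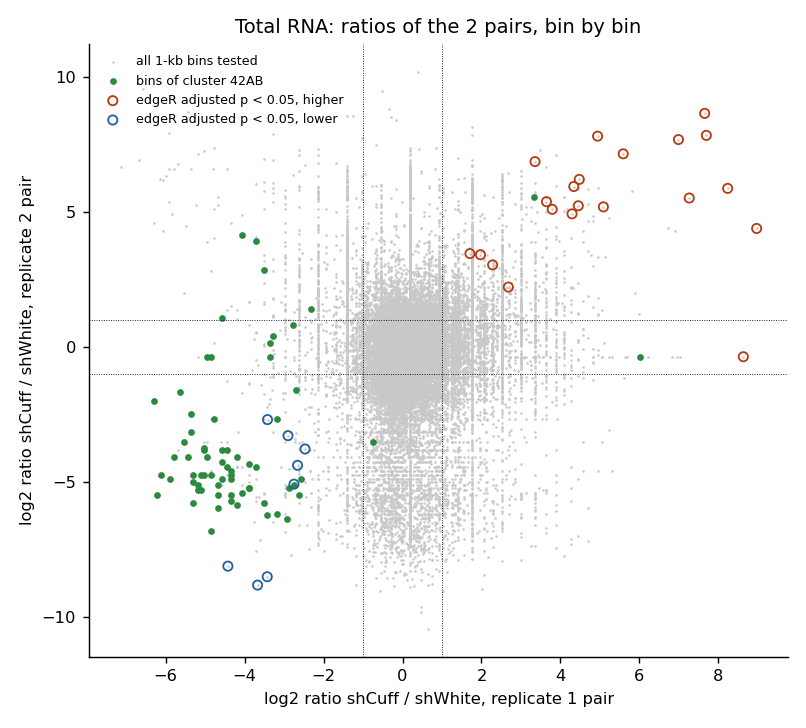
Log2 ratio of shCuff over shWhite (reads per 1000000, pseudocount 0.5 reads) in the replicate 1 pair (x axis) and the replicate 2 pair (y axis) for the 27388 bins tested (grey), the bins of 42AB (green) and the bins past an adjusted p of 0.05 (open circles, red higher, blue lower). The dotted lines mark 2-fold; 54 of 68 bins of 42AB lie in the lower left corner, and the grey cloud reaches further in replicate 2 (SD 2.46) than in replicate 1 (SD 1.12).

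The spread depended on the level. From the lowest to the highest decile of mean RPKM, the SD of the log2 ratio went from 1.41 to 0.486 in replicate 1 and from 3.85 to 1.13 in replicate 2. In the lowest decile 320 bins were at least 2-fold higher in both pairs and 452 were apart in opposite directions, and in the highest decile the counts were 17 and 32. With at least 100 reads in each pair, 6726 bins remained, of which 23 were at least 2-fold higher in both pairs and 41 lower. Under that limit higher bins did not outnumber lower bins. They did so in the highest decile of mean RPKM, with 17 against 8. The same was seen with at least 10 reads in each pair, with 554 against 291. The 41 lower bins lay on the arms except 1 in U, and the arms held 26522 of the 27388 bins tested. Of the 41, 27 were also at least 2-fold lower in poly(A) RNA, against 6.98% of all bins. Of the 23 higher bins, 17 also passed 2-fold upward by poly(A) selection, against 12.8% of all bins. Those shares are over bins of every depth. The shares among the 6726 well covered bins are not given, so nothing is read from the gap. A well covered example is 3R from 6682001 to 6684000, whose bins held 681 and 195, then 1255 and 368 reads in replicate 1, and 663 and 416, then 814 and 422 in replicate 2; neither passed (edgeR adjusted p = 0.944 and 0.829).

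**Figure D4:**
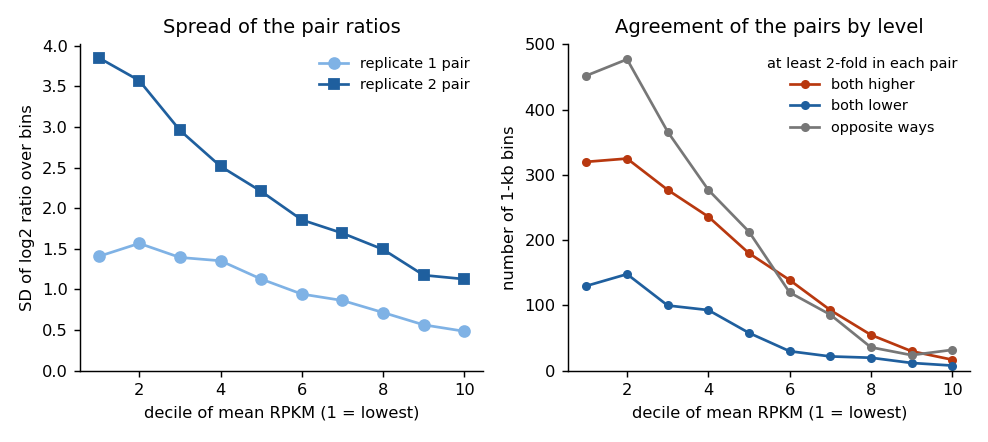
Left, SD over bins of the log2 ratio of shCuff over shWhite in each pair, by decile of mean RPKM. Right, number of bins at least 2-fold higher in both pairs, lower in both, or apart in opposite directions, by the same deciles; all 3 counts fall from the lowest to the highest decile, and from 452 to 32 for opposite bins.

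By chromosome, the shares lay close together on the arms and varied among the heterochromatic and unplaced sequences. On the 5 main arms 5.55% to 6.14% of bins were at least 2-fold higher in both pairs and 1.61% to 3.02% lower. On 3RHet 39 of 99 bins were higher in both pairs (39.4%) and 2 lower, on U 19 of 65 and 1, and on Uextra 25 of 120 and 0. On 2RHet the counts were 17 and 5 of 101, and on 3LHet 7 and 8 of 68. XHet had 1 and 0 of 28, and 2LHet 1 and 1 of 12. Many of these bins passed the level filter only through shCuff: of the 308 scaffold bins, 191 had a mean of at least 1 RPKM over the shWhite libraries and 279 over the shCuff libraries. Among bins that passed on shWhite alone, the share higher in both pairs was 3.66% on scaffolds, 5.88% in unplaced sequence and 3.51% on the arms under this filter, which in turn favours bins that are high in shWhite. Among the assembled chromosomes, chromosome 4 showed the least agreement, with 44.6% of 359 bins of the same sign and 53 bins at least 2-fold apart in opposite directions.

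**Figure D5:**
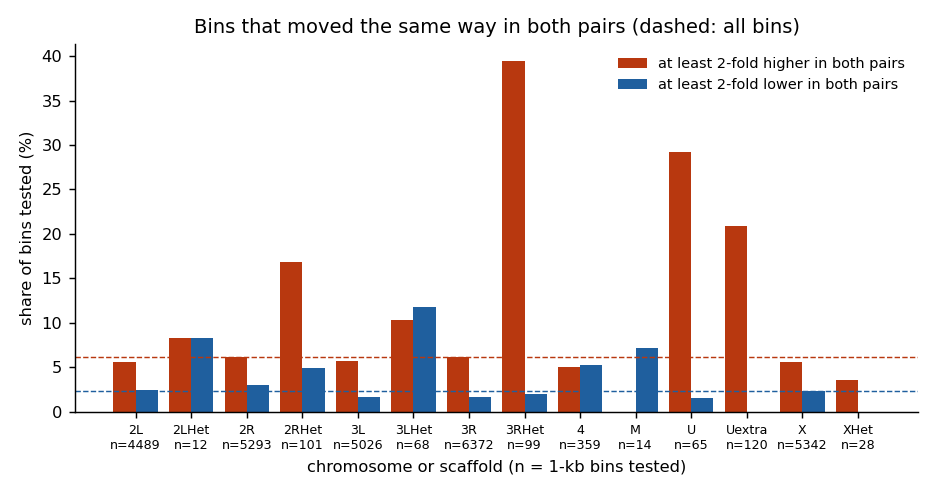
Share of 1-kb bins tested (percent) that were at least 2-fold higher (red) or lower (blue) in both pairs, by chromosome or scaffold, with the number of bins tested under each name; dashed lines are the shares over all bins, 6.1% and 2.27%. 3RHet reaches 39.4% higher, and the arms lie near the dashed lines.

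Summed over whole chromosomes, none of the 14 sums passed edgeR's test, in which p-values were adjusted over the sums and the windows together, 4370 features (0 called; 1 of 14 had an unadjusted p under 0.05). The 5 main arms changed by a log2 of -0.03 to 0.02. Uextra had the largest value, with 0.127% and 0.255% of reads in replicate 1 and 0.00761% and 0.0513% in replicate 2 (log2 change 1.87, SE 0.50, edgeR adjusted p = 0.695). The log2 change of the sum of U was -1.30, and it was 0.83 once the most abundant bin of each library was left out. The bin of U from 5301001 to 5302000 took 178034 and 215712 reads in replicate 1 and 85893 and 9381 in replicate 2. It was the most abundant bin of each total RNA library except shCuff replicate 2, whose most abundant bin lay on X. Its 9381 reads thus stayed in the U sum of shCuff replicate 2 alone, and 0.83 is not the change of U without that bin. The scaffold YHet had no bin tested, and 2 reads in all over the 4 libraries, in ovaries of females, which lack a Y chromosome.

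Among the 3 most abundant bins of each chromosome, those of the mitochondrial genome and of X differed more between sets or single libraries than by genotype. The mitochondrial genome had 14 bins tested and took 3.01% and 3.06% of reads in replicate 1, and 0.342% and 0.109% in replicate 2. Its bin from 1001 to 2000 held 35129 and 36540 reads in replicate 1 and 14673 and 2620 in replicate 2. On X, the bin from 8376001 to 8377000 held 27636 and 24283 reads in replicate 1, and 37098 and 143238 in replicate 2, so its difference lay in shCuff replicate 2. On 3R, the bin from 19555001 to 19556000 was slightly higher in both pairs, at 11714 and 12221 RPM in replicate 1 and 12795 and 15757 in replicate 2, and its poly(A) RNA was 47.5 RPM in shWhite and 28.3 in shCuff.

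The poly(A) and run-on assays had no replicates and gave values without a test, and neither is a separate set: poly(A) RNA shares its title set, AC, with replicate 1, and run-on shares ES with replicate 2. Of the 1672 bins higher in both pairs, 36.5% also passed 2-fold upward by poly(A) selection and 27.1% by run-on, against 12.8% and 14% of all bins tested. Of the 621 lower in both pairs, 38.5% also passed 2-fold downward by poly(A) selection and 38.8% by run-on, against 6.98% and 24.4% of all bins. Many of these bins entered through 1 genotype only. Of the 1545 higher bins on the arms, 832 reached a mean of 1 RPKM over the shWhite libraries. Of the 621 lower bins, 275 did so over the shCuff libraries. All bins were not selected so, and nothing is read from the gap between the shares. Of the 27388 bins tested, 185 were at least 2-fold higher in all 4 comparisons, of which 133 lay on the arms. The arms held 26522 of the bins tested. Those lower in all 4 numbered 125, of which 37 lay in 42AB, which held 68 of the bins tested. Most bins of 42AB entered through shWhite, so nothing is read from that count. In unplaced sequence 28 of the 44 bins higher in both pairs were so in all 4, against 185 of the 1672 over all bins. Only 6 of these 44 reached a mean of 1 RPKM over the shWhite libraries. Most of them thus entered only through shCuff, and nothing is read from their share.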

How the data were processed

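The data were total RNA of ovaries, 2 libraries each of shWhite and shCuff. Per the submitters' processing notes the authors used cutadapt and Bowtie 0.12.7 with dm3 (counting tool and rules for repeated reads: not given in the sources used here). The deposited counts per 1-kb bin were whole in set AC. In set ES the authors' deposited values were taken as estimated counts, since 1 or 2 bins per total RNA library were not whole, and were rounded. The authors' deposited RPKM set the filter. The labels' protocols name a directional kit, but strand is missing from the files, so reads of overlapping and antisense transcripts cannot be told apart.

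Counts were scaled to library totals and tested with edgeR 4.0.16 (R 4.3.3) quasi-likelihood, with title set as replicate block. Benjamini-Hochberg adjustment was over all features tested. The method was tested on simulated data, but these had no difference between title sets and no library with an excess of empty bins. They do not show how the test behaves on libraries such as these. Alternatives were TMM factors, totals without the top bin, DESeq2 1.42.0, limma 3.58.1, other filters and window sizes, no block, and each library left out. The pairing comes from the title set; deviations of same-set libraries from group means correlated at 0.587 over 27388 bins. The labels do not state separate groups of flies for the replicates, so a p-value reflects the spread between these libraries alone, and that spread may be technical.

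Named bins are all those past adjusted p of 0.05; named windows are those past it and the 10 highest and 10 lowest that were 2-fold the same way in both pairs with at least 50 reads; the 3 most abundant bins per chromosome and landmark intervals were also considered. Landmark positions came from background knowledge, rounded to kb. The bins, lists and landmarks were chosen with earlier results of these data known. Other bins with values were chosen after their values were seen. Planned marker lists needed a dm3 annotation and were not used here. A 7F chorion interval was not reported because the most abundant bins of X lay just outside it.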

Additional observations from a re-analysis of the deposited data

How the results depend on the processing

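The counts of bins and windows past the threshold depended on the processing, and the cause was not tested. For bins higher and lower (21 and 8), TMM factors gave 4 and 0, totals without the most abundant bin 13 and 3, limma 37 and 63 with a pseudocount of 1 and 40 and 136 with 0.1, no filter 41 and 18, and a mean of at least 5 RPKM 9 and 0. DESeq2 gave 17 and 11. Without the replicate block, which the pairing by title set supplies, 0 and 0 were called. Leaving out 1 library at a time gave 0 to 5 higher and 0 to 12 lower: 0 and 0 without shWhite replicate 1 or shWhite replicate 2, 3 and 12 without shCuff replicate 1, and 5 and 2 without shCuff replicate 2. Fits without a block assume that a lone library varies like the others.

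For windows (1 and 0), TMM factors gave 12 and 2, totals without the most abundant bin 5 and 0, DESeq2 31 and 17, limma 0 and 0 with a pseudocount of 1 and 4 and 2 with 0.1, no filter 60 and 37, a mean of at least 5 RPKM 0 and 0, and no replicate block 0 and 0. Windows of 5 kb gave 8 and 1, those of 20 kb 8 and 0, and leaving out 1 library 0 to 3 and 0. Chromosome sums had 0 calls under every alternative run.

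Agreement of the pairs (54.9% same sign, 1672 higher and 621 lower bins) became 54.2%, 489 and 221 with a pseudocount of 5 reads, 54.2%, 534 and 160 with a mean of at least 5 RPKM, 53.2%, 554 and 291 with at least 10 reads in each pair, and 55.9%, 1672 and 317 without bins at 0 reads in shCuff replicate 2, an alternative chosen after seeing the data that can lower only the count of lower bins. Centred on the median ratio the share was 48.8%, with 1638 higher and 758 lower. For windows a mean of at least 5 RPKM left 27 higher and 8 lower, against 123 and 24. Depth limits the low bins, where 1 to 3 reads can set a ratio.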
